A study of Mus musculus with 6 samples.

Results

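The renin-angiotensin and endothelin genes examined in the heart were Agt, Ace, Agtr1a, Agtr2 and Agtrap on the angiotensin side and Edn1, Ednra, Ednrb and Ece1 on the endothelin side. They were chosen by gene symbol, and every probe that carried 1 of the 9 symbols, out of 18138 gene symbols on the array, was kept, which gave 13 of 25697 probes. Total heart RNA of male pups at postnatal day 6 was hybridized to Illumina MouseRef-8 BeadChips, 1 array per heart, for 3 hSRY-ON and 3 hSRY-OFF animals of the FVB strain (FVB/N in the methods). The hSRY-ON pups carried the Signalox-hSRY transgene, a single-copy insertion at the H11 locus, in its recombined form, in which the CAG promoter drives FLAG-tagged human SRY together with EGFP in all tissues. Recombination came from Cre in the oocytes of Ddx4-Cre mothers, and pups that had themselves inherited Ddx4-Cre were left out of the hSRY-ON group. The methods define hSRY-OFF as the same transgene before recombination, when a DsRed2 cassette separates the promoter from SRY, whereas elsewhere the study describes its controls as littermates with Ddx4-Cre only or with no transgene, so the exact genotype of the control hearts is uncertain. All transgenic animals came from a single line, and hSRY-ON pups fed poorly and were growth retarded at this age. An effect of SRY within the heart and an effect of the animals' condition cannot be told apart in this design. The hearts are described as biological triplicates and nothing more is stated about their litters.

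The renin-angiotensin system makes a vasoconstrictor peptide by stepwise cleavage. Renin releases angiotensin I from angiotensinogen (Agt), angiotensin-converting enzyme (Ace) turns it into angiotensin II, and the peptide acts through Agtr1a, which raises vascular tone and promotes cardiac hypertrophy, and through Agtr2, which often opposes it. Endothelin runs on a similar plan. The endothelin-1 precursor (Edn1) is processed by the endothelin-converting enzyme (Ece1), and the mature peptide binds Ednra, the receptor of smooth muscle and cardiomyocytes that drives contraction, and Ednrb, which in endothelium triggers the release of vasodilators and clears the peptide from the circulation.

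Between 12138 and 13172 probes were detected per array, at a detection p-value under 0.05 relative to each array's own negative controls, and the median intensity over all probes lay between 156 and 201. Precision is limited by the number of arrays, and 3 hearts against 3 cannot give a two-sided exact permutation p-value below 0.1. The array's Sry probe, designed for the mouse gene, was not detected in any heart, and the human transgene was not measured. The labelled tissue was borne out by its markers: all 9 cardiomyocyte markers on the array were detected in both groups. The array of hSRY-ON replicate 1 stood apart from the others in transcripts of lung epithelium. The summed normalized intensity of 6 such genes was 14698 there, against 275 and 310 in the other hSRY-ON hearts and 201 to 291 in the hSRY-OFF hearts. Most of it came from Scgb1a1, the club cell secretory protein. Results are therefore also given without this heart, and the part of these transcripts in the results was not tested.

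Of the 13 probes, 12 probes of 8 genes were detected on at least 3 of the 6 arrays and were tested with limma on background-corrected, quantile-normalized log2 intensities, with p-values adjusted by the Benjamini-Hochberg method over all 12970 tested probes. Transcripts for both converting enzymes and for the endothelin-1 precursor were higher in the hSRY-ON hearts, and the transcript of the main angiotensin II receptor was lower. An adjusted p-value under 0.05 was reached by 8 of the 12 probes, 6 higher in hSRY-ON (Ace on both probes, Edn1, Ece1 on both probes and Ednrb on 1 of 3 probes) and 2 lower (Agtr1a and Agtrap), against 27.5% of all tested probes. The 13.8% of tested probes that were higher and the 13.7% that were lower give the background for each direction. The groups did not overlap on 8 of the 12 probes, 6 with hSRY-ON above and 2 with hSRY-ON below, as was the case for 45.2% of all tested probes (23.6% above and 21.6% below). Both counts include the Ace probe ILMN_2613683, which was detected in hSRY-ON hearts only. It passed the detection filter through the group where it was high. The median log2 fold change of the 12 probes was 0.93, with a range from -2.27 to 2.53, while that of all tested probes was -0.0046. Leaving out hSRY-ON replicate 1, 7 of the 11 probes that could still be tested passed the threshold, 6 higher and 1 lower, against 17.9% of all probes tested in that setting. All log2 fold changes are hSRY-ON minus hSRY-OFF, a probe's level is compared only between hearts, and in these whole-organ samples fewer cells of a type and less RNA per cell cannot be told apart.

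**Figure D1:**
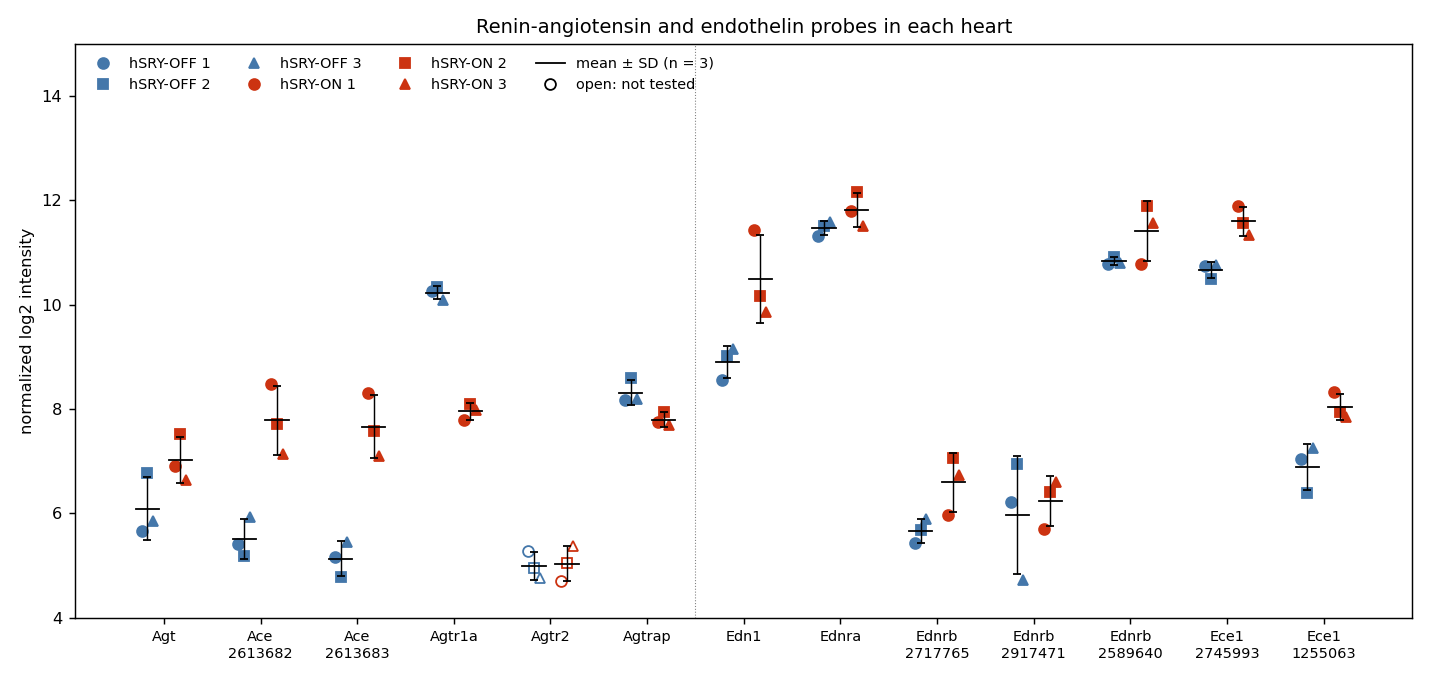
Normalized log2 intensity of each of the 13 probes (horizontal axis, split into renin-angiotensin probes at the left and endothelin probes at the right) in the 3 hSRY-OFF hearts (blue) and the 3 hSRY-ON hearts (red), with the mean and SD of each group as black lines. The hSRY-ON hearts all lie above the hSRY-OFF hearts for Ace, Edn1, Ece1 and 1 Ednrb probe and below them for Agtr1a and Agtrap, and the open symbols of Agtr2 mark a probe that was not tested.

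Agt (chr8:124556587-124569706, positions here and below on GRCm38.p6) encodes angiotensinogen, the only precursor of the angiotensins. Its normalized log2 intensity was 5.66, 6.77 and 5.85 in the hSRY-OFF hearts and 6.90, 7.52 and 6.65 in the hSRY-ON hearts, here and below in the order of replicates 1, 2 and 3. hSRY-OFF replicate 2 reached into the range of the hSRY-ON hearts, so the groups overlapped. The log2 fold change was 0.93 (SE 0.33, 95% confidence interval 0.16 to 1.70), which did not pass the threshold (adjusted p = 0.0729). It passed in 4 of 17 other settings, among them without hSRY-OFF replicate 2 (1.25, adjusted p = 0.0202), and not without hSRY-ON replicate 1 (0.99, adjusted p = 0.127).

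Ace (chr11:105967948-105989964) had the largest increase among these genes after background correction. The sequence of 250 bases before its first annotated start, from RefSeq on GRCm38.p6, is shown 5′ to 3′ because the gene rose on both of its probes, with the letters of the TATA box, TATAAA, read on the opposite strand, in capitals.
Ace promoter, chr11:105967698-105967947, plus strand: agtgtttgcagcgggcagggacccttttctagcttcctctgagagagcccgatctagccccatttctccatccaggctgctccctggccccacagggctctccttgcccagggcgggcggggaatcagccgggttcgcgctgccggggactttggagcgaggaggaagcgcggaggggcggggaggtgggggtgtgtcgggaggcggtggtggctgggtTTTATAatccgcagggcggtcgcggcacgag

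The probe ILMN_2613682 of Ace read 5.42, 5.19 and 5.94 in the hSRY-OFF hearts and 8.47, 7.72 and 7.15 in the hSRY-ON hearts. The groups lay more than 1 log2 unit apart, with hSRY-ON replicate 1 the highest and replicate 3 the lowest of the hSRY-ON hearts. The log2 fold change was 2.27 (SE 0.34, adjusted p = 0.00275), a 4.81-fold increase, although the probe was detected in 2 of the 3 control hearts only. The other probe, ILMN_2613683, read 5.16, 4.79 and 5.46 in hSRY-OFF and 8.30, 7.58 and 7.09 in hSRY-ON hearts. It was not well above background in any control heart, so its level was at least 4.69-fold higher in hSRY-ON. It passed the detection filter through the hSRY-ON hearts alone, so its adjusted p-value of 0.00129 is no separate support for the rise. The deposited intensities behind the first probe were 191, 194 and 171 in hSRY-OFF and 456, 340 and 262 in hSRY-ON hearts, so the separation was present before any correction. The size of the change depended on the correction: the log2 fold changes of the first and the other probe were 1.45 and 1.55 with an offset of 50, and 0.996 and 1.03 with no background correction, below the 1.36 of Edn1 in that setting, and the bound of 4.69-fold holds for the corrected intensities only. Both probes passed the threshold in each case. Of all 12970 tested probes, the Ace probes ranked at 68 and 92 by size of increase. Without hSRY-ON replicate 1, the first probe kept a log2 fold change of 1.93 (adjusted p = 0.00532), and the other was no longer detected on enough arrays to be tested.

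Agtr1a (chr13:30336356-30382867), the receptor that carries most cardiovascular actions of angiotensin II in rodents, moved the other way. Its deposited intensity was 1557, 1746 and 939 in the hSRY-OFF hearts and 333, 404 and 366 in the hSRY-ON hearts. After normalization these became 10.26, 10.34 and 10.10 against 7.79, 8.10 and 7.99 on the log2 scale. Within each group the hearts differed by little (SD 0.12 and 0.16, n = 3), and the groups were far apart. The log2 fold change was -2.27 (SE 0.13, 95% confidence interval -2.58 to -1.96, adjusted p = 7.28e-05), which is 4.83-fold lower in hSRY-ON and the 64th largest decrease of all tested probes. It ranged from -2.34 to -2.18 when each heart was left out in turn, and without hSRY-ON replicate 1 it was -2.18 (adjusted p = 0.000419).

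The remaining angiotensin receptor, Agtr2 (chrX:21484624-21488833), stayed near background. Its log2 intensities were 5.29, 4.96 and 4.75 in hSRY-OFF and 4.70, 5.05 and 5.37 in hSRY-ON hearts, and the probe was detected on the array of hSRY-ON replicate 3 only, with a detection p-value of 0.0313. The groups overlapped, and no test was made at this signal.

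Agtrap (chr4:148077061-148088064) encodes a membrane protein that binds the type 1 angiotensin receptor and promotes its internalization. Its promoter is shown because it and the Ece1 promoter at a later start were the 2 of the 12 promoters of these genes to hold ACGTG, the core of the site for hypoxia-inducible factors, here in capitals within the palindrome CACGTG.
Agtrap promoter, chr4:148088065-148088314, minus strand: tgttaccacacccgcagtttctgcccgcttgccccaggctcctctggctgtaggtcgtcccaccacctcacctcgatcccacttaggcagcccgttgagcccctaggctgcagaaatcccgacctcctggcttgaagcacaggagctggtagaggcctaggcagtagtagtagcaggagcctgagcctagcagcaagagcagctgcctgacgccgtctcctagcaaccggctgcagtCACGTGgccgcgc

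The log2 intensity of Agtrap was 8.17, 8.59 and 8.19 in hSRY-OFF and 7.75, 7.95 and 7.69 in hSRY-ON hearts. All hSRY-ON hearts were lower, by a narrow margin, and the deposited intensities overlapped (338 to 636 against 320 to 377). The log2 fold change was -0.52 (SE 0.16, adjusted p = 0.0425), 1.43-fold lower. This was the least firm decrease, since it passed the threshold in 8 of 17 other settings only, and without hSRY-ON replicate 1 it was -0.50 (adjusted p = 0.115).

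On the endothelin side, the ligand and its converting enzyme were both higher. The promoters of Edn1 and Ece1, the latter at the first of its annotated starts, are shown for this reason. Neither holds any of the 5 motifs searched, so there are no capitals.
Edn1 promoter, chr13:42301226-42301475, plus strand: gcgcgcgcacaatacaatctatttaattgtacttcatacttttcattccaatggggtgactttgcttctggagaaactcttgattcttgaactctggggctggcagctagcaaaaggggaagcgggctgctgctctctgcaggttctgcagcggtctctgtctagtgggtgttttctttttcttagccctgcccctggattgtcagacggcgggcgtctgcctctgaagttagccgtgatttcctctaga
Ece1 promoter, chr4:137861987-137862236, plus strand: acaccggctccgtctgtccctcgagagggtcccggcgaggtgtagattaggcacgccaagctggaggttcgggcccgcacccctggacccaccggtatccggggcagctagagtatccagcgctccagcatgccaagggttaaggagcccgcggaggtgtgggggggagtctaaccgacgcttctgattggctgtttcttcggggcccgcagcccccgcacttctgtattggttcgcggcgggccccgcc

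Edn1 (chr13:42301476-42307990) encodes the precursor of endothelin-1, a potent vasoconstrictor peptide of the endothelium. Its deposited intensity was 587, 795 and 541 in the hSRY-OFF hearts and 2743, 1280 and 1004 in the hSRY-ON hearts. On the normalized log2 scale the hSRY-OFF hearts read 8.56, 9.01 and 9.15 and the hSRY-ON hearts 11.44, 10.17 and 9.86. Every hSRY-ON heart exceeded every hSRY-OFF heart, and hSRY-ON replicate 1 was well above the other hSRY-ON hearts. The log2 fold change was 1.58 (SE 0.39, 95% confidence interval 0.68 to 2.49, adjusted p = 0.0210), a 2.99-fold increase. Without hSRY-ON replicate 1 it was 1.11 (SE 0.21, adjusted p = 0.0154). The call was lost without hSRY-OFF replicate 1 (1.41, adjusted p = 0.0703) and without hSRY-OFF replicate 2 (1.64, adjusted p = 0.0523).

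Ece1 (chr4:137862237-137965229) is the membrane protease that releases mature endothelin-1. Its probe ILMN_2745993 read 10.74, 10.49 and 10.76 in hSRY-OFF and 11.89, 11.56 and 11.35 in hSRY-ON hearts, a log2 fold change of 0.93 (SE 0.17, adjusted p = 0.00604). The other probe, ILMN_1255063, read 7.03, 6.40 and 7.25 against 8.33, 7.95 and 7.85, a log2 fold change of 1.15 (SE 0.24, adjusted p = 0.0106). The groups did not overlap on either probe, and on both the order within the hSRY-ON hearts was replicate 1 above 2 above 3, as for Ace and Edn1. Without hSRY-ON replicate 1 the changes were 0.78 (adjusted p = 0.0186) and 1.01 (adjusted p = 0.0385). Both Ece1 probes, both Ace probes and Agtr1a were the 5 probes that passed the threshold in every setting that gave them a value. The Ece1 probes and Agtr1a had a value in all 17 other settings. The Ace probes had one in 16 (ILMN_2613682) and in 13 (ILMN_2613683), so they met fewer checks.

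Ednra (chr8:77663029-77724452), the contractile endothelin receptor, read 11.32, 11.50 and 11.58 in hSRY-OFF and 11.80, 12.15 and 11.51 in hSRY-ON hearts. The groups overlapped, with hSRY-ON replicate 3 inside the control range. The log2 fold change was 0.36 (SE 0.18, 95% confidence interval -0.06 to 0.77, adjusted p = 0.181), an interval that holds both no change and an increase of 0.77. The estimate without hSRY-ON replicate 1 was 0.37.

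Ednrb (chr14:103814615-103844508), the receptor of endothelium and of neural crest derivatives such as melanocytes, gave different results on its 3 probes. The brightest, ILMN_2589640, read 10.78, 10.92 and 10.80 in hSRY-OFF and 10.78, 11.89 and 11.57 in hSRY-ON hearts. hSRY-ON replicate 1 lay within the control range, and the log2 fold change of 0.58 (SE 0.26) did not pass the threshold (adjusted p = 0.14), but without that heart it was 0.90 (adjusted p = 0.0110). The probe ILMN_2717765 read 5.43, 5.68 and 5.89 against 5.98, 7.07 and 6.74 and passed it, with a log2 fold change of 0.93 (SE 0.27, adjusted p = 0.0408). Its groups were separate after normalization by a small margin but overlapped in deposited intensity (169 to 215 against 190 to 266), and the call was lost in 6 settings, among them without hSRY-OFF replicate 1 or 2 and without hSRY-ON replicate 2 or 3. It was 1.25 (adjusted p = 0.00706) without hSRY-ON replicate 1. The probe ILMN_2917471 was detected on 2 of 3 hSRY-OFF arrays and had a log2 fold change of 0.27 (SE 0.53, adjusted p = 0.739), which turned to -0.36 without hSRY-OFF replicate 3, the heart in which it was not detected. On all 3 probes hSRY-ON replicate 1 was the lowest of the hSRY-ON hearts, the reverse of its place for Ace, Edn1 and Ece1.

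**Figure D2:**
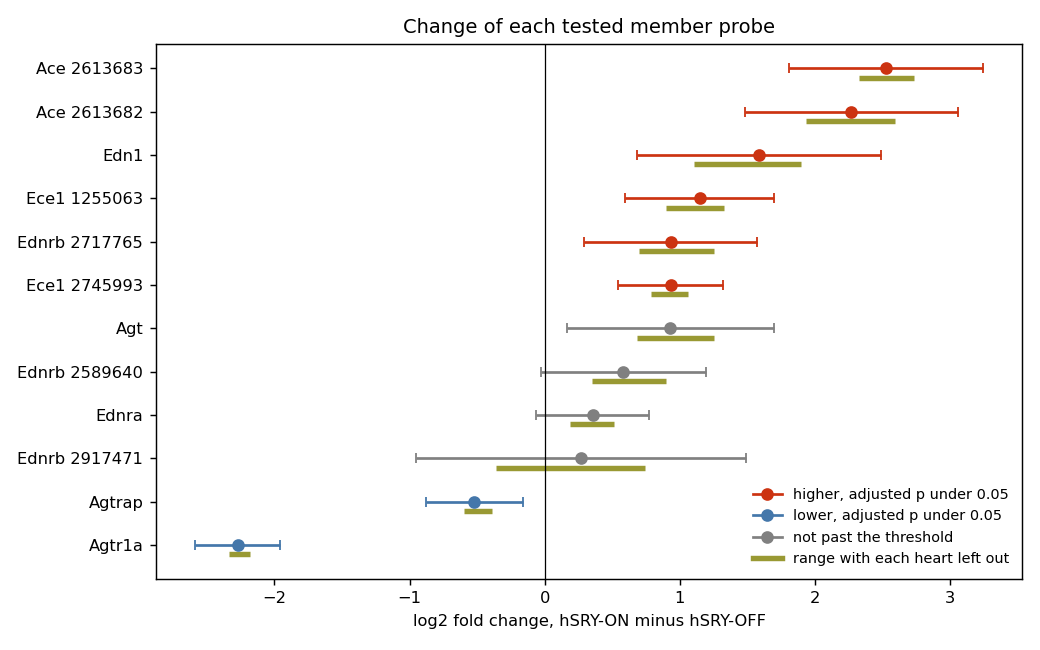
Log2 fold change (horizontal axis, hSRY-ON minus hSRY-OFF) of the 12 tested probes, with the 95% confidence interval of the limma fit as a thin line and, below it, the range of the estimate when each heart was left out in turn as a thick line. Ace stands at the top with 2.53 and 2.27 and Agtr1a at the bottom with -2.27, and the leave-one-out range crosses 0 for the Ednrb probe ILMN_2917471 only.

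Promoters were found for 8 of the 9 genes in RefSeq, in 12 windows of 250 bases before an annotated start. Each motif was searched on both strands, and the shares refer to 32851 windows of the same length over all genes. AACAAT, a core of SRY and SOX sites, was in 0 of the 12 windows and in 9.42% of all windows, and TGACTCA (AP-1) in 0 and 4.46%. The GATA motif AGATAA was in 0 of the 12 and in 9.99% of all. ACGTG was in 2 of the 12 and in 16.6% of all, and TATAAA in 2, those of Agt and Ace, and 12.4% of all. These matches describe letters in the windows and not sites that a factor occupies.

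Around these genes stood 97 others of the same systems, in 7 lists, of which 91 were on the array and 62 were tested by their brightest probe. A total of 19 were higher and 4 were lower in hSRY-ON, 37.1% of those tested, against 28.8% of all genes taken by their brightest probe (14.9% higher and 13.9% lower). The median log2 fold change of the 62 was 0.14. Without hSRY-ON replicate 1, 16 of 60 passed the threshold, 12 higher and 4 lower, where 17.9% of all tested probes did. The latter is a share of probes and not of genes. In the main fit it was 27.5% of probes, against 28.8% of genes. With every probe of a gene in place of the brightest, 24 genes were called, 19 higher and 5 lower. The added gene was Ctsa, named after its values were seen, which encodes a lysosomal carboxypeptidase. A dimmer Ctsa probe was lower (-0.93, SE 0.18, adjusted p = 0.00882), and the brightest was not called (0.20, SE 0.14, adjusted p = 0.342).

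The share of tested genes called was 25% in the angiotensin enzyme list and in G protein signaling, below the 28.8% of all genes by brightest probe. It was 45.5% in receptor desensitization and 50% in each of the other lists. Among the other enzymes that form or degrade angiotensins, 3 of 12 tested rose and 0 fell. They were Mme, the neutral endopeptidase neprilysin (log2 fold change 1.15, SE 0.27, adjusted p = 0.0165), Dpp3, a dipeptidyl peptidase that degrades angiotensin II (0.81, SE 0.12, adjusted p = 0.00243), and the oligopeptidase neurolysin, Nln (0.72, SE 0.13, adjusted p = 0.00639). All hSRY-ON hearts were above all hSRY-OFF hearts for each of them, and the call of Mme was lost without hSRY-ON replicate 1 (1.06, adjusted p = 0.0566). The other Mme probe was detected on no array, and the other Dpp3 probe rose (0.96, adjusted p = 0.00613). Of the dimmer Nln probes, ILMN_2786567 rose (0.53, adjusted p = 0.0489) and ILMN_2746695 was not called (0.80, adjusted p = 0.0627). Ren1, which encodes renin, was not well above background on any of the 6 arrays. Of the receptors and their partners, 1 of 4 tested rose and 1 fell. Atp6ap2, the prorenin receptor and a subunit of the vacuolar proton pump, read 11.30, 11.40 and 11.45 in hSRY-OFF and 12.02, 12.26 and 12.14 in hSRY-ON hearts (0.76, SE 0.12, adjusted p = 0.00368), and its other 3 probes rose as well. Aplnr, the apelin receptor, read 10.64, 10.59 and 9.81 against 8.93, 8.86 and 9.41 (-1.28, SE 0.25, adjusted p = 0.00904). Agtr1b, the other type 1 receptor gene of the mouse, was not detected in any heart, and Mas1, the receptor of a shorter angiotensin, on 1 hSRY-OFF array only.

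In the endothelin list of ligands and converting enzymes, 2 of 4 tested genes rose, Mme, which also degrades endothelin, and Furin, the convertase that makes the first cut in the endothelin precursor. Furin read 12.26, 12.31 and 12.27 in hSRY-OFF and 13.22, 13.15 and 12.82 in hSRY-ON hearts (0.78, SE 0.14, adjusted p = 0.00584). Ece2, the intracellular relative of Ece1, just missed the threshold (0.62, SE 0.20, adjusted p = 0.0522) and passed it in 9 of 17 other settings, but not without hSRY-ON replicate 1 (0.41, adjusted p = 0.117). Of the other ligand genes, Edn3 was above background on no array, and Edn2 was detected on 2 hSRY-ON arrays and on no hSRY-OFF array, with log2 intensities of 4.63, 6.45 and 5.83 in hSRY-ON against 4.62 to 4.76 in hSRY-OFF hearts. It was too rarely detected to be tested.

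Below the receptors, 3 of 16 tested genes of G protein signaling rose and 1 fell, with a median log2 fold change of -0.02. This share of 25% was below the 28.8% of all genes by brightest probe. The calcium channels of the endoplasmic reticulum Itpr1 (0.75, SE 0.15, adjusted p = 0.0107) and Itpr2 (0.67, SE 0.19, adjusted p = 0.0351) and the kinase Prkcd (0.61, SE 0.16, adjusted p = 0.0302) were higher, and the kinase Prkca was lower (-0.74, SE 0.15, adjusted p = 0.0102). The calls of Itpr2 and Prkcd were lost without hSRY-ON replicate 1. Among genes that end receptor signaling, 3 of 11 rose and 2 fell. Rgs16, which speeds the shut-off of G proteins, read 7.01, 7.22 and 7.28 against 8.24, 8.92 and 9.31 (1.65, SE 0.26, adjusted p = 0.00336), and the receptor kinases Grk5 (1.07, SE 0.27, adjusted p = 0.0252) and Grk3, listed on the array as Adrbk2 (0.71, SE 0.17, adjusted p = 0.0200) were also higher. The call of Grk5 was lost without hSRY-ON replicate 1 (0.86, adjusted p = 0.0760), and the other Grk5 probe was not called (0.38, SE 0.23, adjusted p = 0.26). The Grk3 probe was detected on 1 hSRY-OFF array and on 3 hSRY-ON arrays, so the hSRY-ON hearts alone sufficed for the detection filter. Its deposited intensities overlapped (150 to 193 in hSRY-OFF against 180 to 206 in hSRY-ON hearts). The Grk3 call was lost in 4 of 16 other settings, among them no background correction, where the log2 fold change was 0.21. The other Grk3 probe was detected on no array. Rgs4 was lower (-0.61, SE 0.17, adjusted p = 0.0312). Rgs2, which acts on the G protein of the angiotensin receptor, was above background on no hSRY-ON array and at least 1.37-fold lower (adjusted p = 0.0105). It passed the detection filter through the hSRY-OFF hearts alone, so its call is no separate support.

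Genes of vasodilator systems that oppose both peptides rose in 6 of 12 tested cases and fell in 0, but only 2 of 12 passed the threshold without hSRY-ON replicate 1 and 3 without normalization between arrays. Ramp3, a subunit of adrenomedullin receptors, read 5.86, 5.75 and 6.41 in hSRY-OFF and 7.18, 8.82 and 7.63 in hSRY-ON hearts (1.87, SE 0.40, adjusted p = 0.0119). Gucy1b1, listed as Gucy1b3, a subunit of the nitric oxide receptor guanylate cyclase (0.997, SE 0.24, adjusted p = 0.0203), and Adm, adrenomedullin itself (0.95, SE 0.26, adjusted p = 0.0308), followed, and their calls were lost without hSRY-ON replicate 1. In the aldosterone and corticoid list 2 of 4 tested genes rose. Hsd11b1, which regenerates active glucocorticoid inside cells, read 6.07, 6.10 and 6.71 in hSRY-OFF and 9.47, 9.44 and 8.40 in hSRY-ON hearts (2.81, SE 0.31, adjusted p = 0.000953). Sgk1, a kinase induced by corticoids, read 11.41, 11.95 and 11.89 against 12.83, 13.18 and 12.87 (1.21, SE 0.18, adjusted p = 0.00274). For both, the groups lay apart and the call held without hSRY-ON replicate 1.

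**Figure D3:**
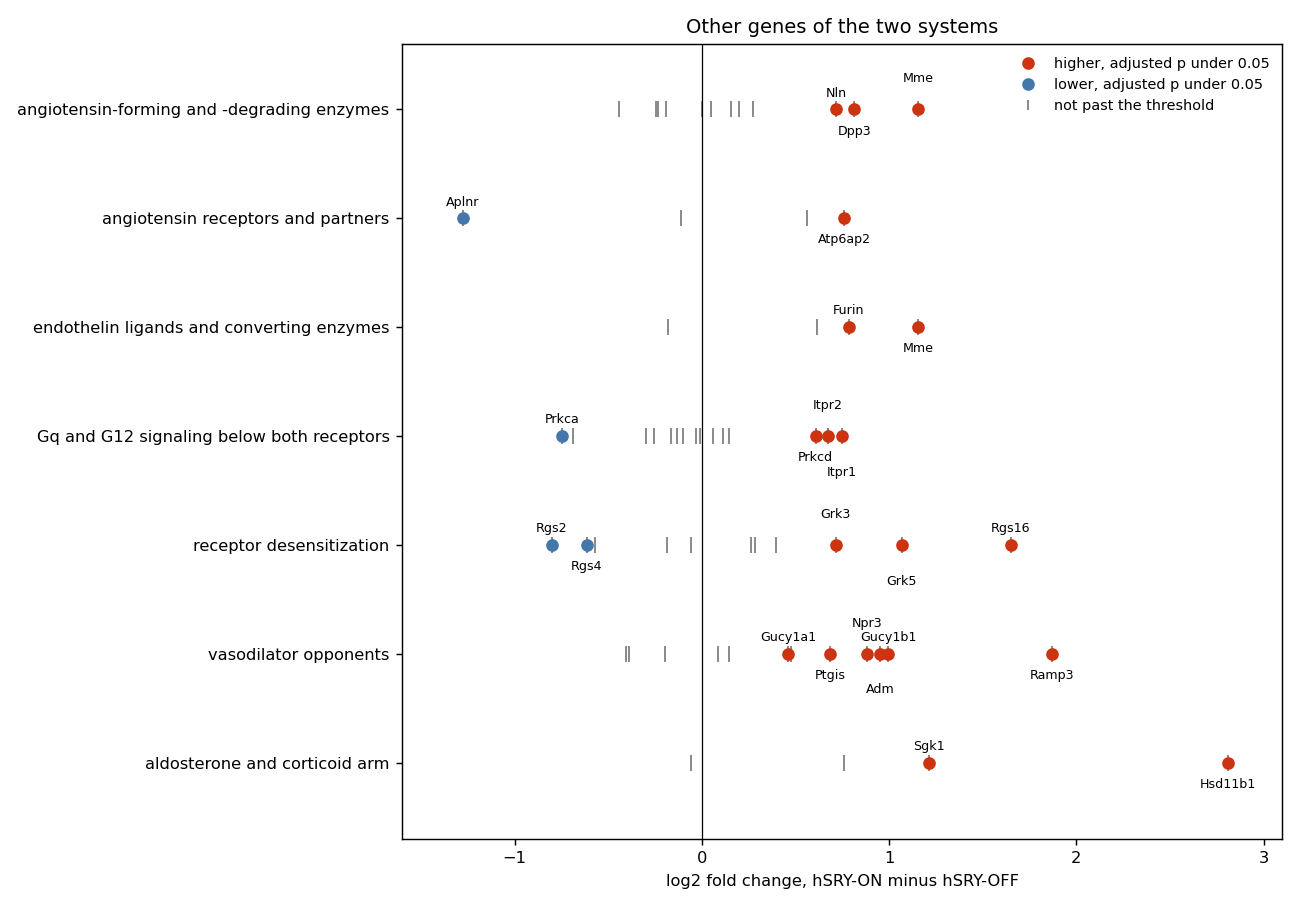
Log2 fold change (horizontal axis, hSRY-ON minus hSRY-OFF) of the tested genes of the 7 lists (rows), 1 brightest probe per gene, with Mme in both enzyme lists. Hsd11b1 at 2.81, Ramp3 at 1.87 and Rgs16 at 1.65 lie farthest to the right, and Aplnr at -1.28 farthest to the left.

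Some markers of the cell types that make or receive these peptides, and of other cell types, also differed between the groups. Over all marker lists 33 of 70 tested genes passed the threshold (47.1%), against 28.8% of all genes by brightest probe (14.9% higher and 13.9% lower). By list the share ran from 0% of 2 lung epithelial markers and 12.5% of 8 fibroblast markers to 100% of 3 hepatocyte markers. The part of these cell types in the results was not tested. Ace, Edn1, Ece1 and Ednrb are expressed by endothelium, and of 10 tested endothelial markers 2 were higher (Eng and Emcn) and 4 lower (Cdh5, Tek, Esam and Robo4) in hSRY-ON. The summed normalized intensity of the 11 endothelial markers was 34738 to 36556 in the control hearts against 31939 to 34718 with hSRY activated, so the sums of the groups nearly touched. Without hSRY-ON replicate 1 the endothelial calls were 1 higher and 2 lower, and without normalization between arrays 0 higher and 2 lower. For smooth muscle and pericytes, 3 of 10 tested markers were higher (Acta2, Tagln and Mcam) and 2 lower (Abcc9 and Notch3), with sums of 34190 to 40409 against 48961 to 52342. This sum was mostly Acta2, and without hSRY-ON replicate 1 the calls were 2 higher and 0 lower. Of 8 tested fibroblast markers 1 rose, with sums of 34468 to 37918 against 31586 to 35431, and of 9 cardiomyocyte markers 4 fell (Myh6, Tnni3, Ryr2 and Pln), with overlapping sums of 169062 to 182472 against 156580 to 170018. The cardiomyocyte sum is weighted to its brightest markers, such as Myl2 and Myl3, with mean log2 intensities of 15.4 in both groups. The mean log2 intensity of the 9 markers did not overlap, with 12.71 to 12.97 in hSRY-OFF against 12.22 to 12.505 in hSRY-ON hearts. For epicardium, 2 of 6 tested markers rose and 1 fell, with sums of 2166 to 2613 against 2765 to 2835.

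Agt is made chiefly by liver and fat. All 3 tested hepatocyte markers rose (Ttr, Ahsg and Trf), with a sum over 9 markers of 913 to 1018 in hSRY-OFF against 3086 to 5148 in hSRY-ON, while the defining markers Alb, Fgb, Serpina1a and Cps1 were not detected in any heart. Ttr was detected in hSRY-ON hearts only and so passed the detection filter through the group where it was high. Of 4 tested adipocyte markers 2 rose (Adipoq and Ucp1), with overlapping sums of 2006 to 2758 against 1216 to 3769. With hSRY-ON replicate 1 left out, neither rise passed the threshold, and 1 of the 4 was lower. For Ednrb, the neural crest list held Dct, a melanocyte enzyme, which read 5.61, 5.73 and 5.66 in hSRY-OFF and 7.88, 9.09 and 7.71 in hSRY-ON hearts (2.56, SE 0.33, adjusted p = 0.00164). Both Dct and the brightest Ednrb probe were highest in hSRY-ON replicate 2, but they differed in the other hSRY-ON hearts. In hSRY-ON replicate 1 the Ednrb probe read 10.78, within the control range, while Dct at 7.88 was above every control heart and above hSRY-ON replicate 3. The sums of this list, of which 2 of 4 tested genes rose, were 398 to 441 against 1456 to 2057. Macrophage markers rose in 6 of 9 cases, with sums of 3969 to 5049 against 8696 to 9253. Of 5 blood cell markers 1 fell, and of 2 tested lung epithelial markers none passed the threshold.

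**Figure D4:**
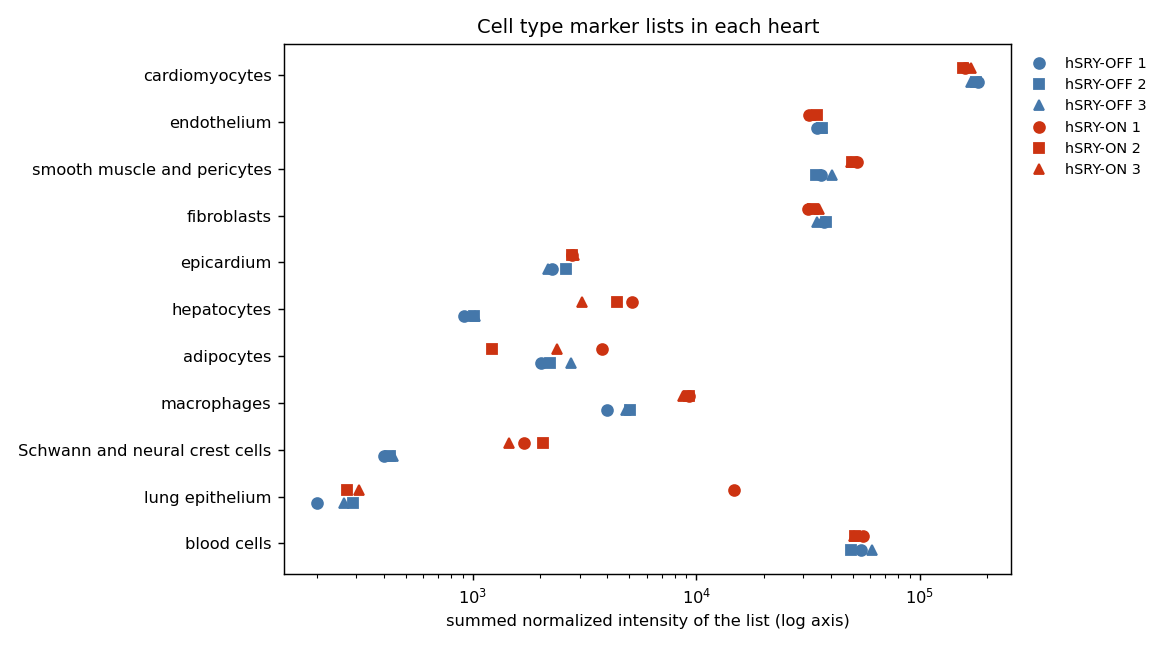
Summed normalized intensity (horizontal log axis) of the marker genes of each cell type (rows) in the 3 hSRY-OFF hearts (blue) and the 3 hSRY-ON hearts (red). The endothelial sums nearly touch, the smooth muscle, epicardial, hepatocyte, macrophage and neural crest sums lie higher, and hSRY-ON replicate 1 alone reaches 14698 for lung epithelium.

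The genes whose log2 intensity over the 6 arrays was most like that of Ace (probe ILMN_2613683), out of 9659 other genes, were Pigf, Copg, Bcat1, Txndc5 and AI646023, with Pearson correlations of 0.999 to 0.996. Those most like Agtr1a were Asb10, BC022224, Cpt2 and Pank1, with correlations from 0.9996 to 0.998. Their log2 fold changes ran from 0.41 for Copg to 2.77 for AI646023 and from -1.14 for Cpt2 to -3.97 for Asb10. With 2 groups that lie apart, likeness between genes and a shared group difference cannot be told apart, so the correlations are a description.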

How the data were processed

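Total heart RNA from 3 hSRY-ON and 3 hSRY-OFF male mice was hybridized to MouseRef-8 v2.0 BeadChips. What the authors deposited is, for each probe, a bead intensity on a linear scale, not normalized, and a detection p-value for each probe and array. The bead summary software is not given in the sources used here. The methods name the R package TCC and the submitters' processing notes name limma, but only the intensities were used here.

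Groups were taken from the sample labels. In R 4.3.3 with limma 3.58.1, the background was corrected by normexp from the detection p-values with an offset of 16, the arrays were quantile normalized, and log2 was taken, as in neqc. Probes with a detection p-value under 0.05 on at least 3 of the 6 arrays were fitted with lmFit and eBayes, with two-sided p-values and Benjamini-Hochberg adjustment over the 12970 tested probes. A gene outside the 9 was represented by its brightest probe. For a probe not detected in any heart of a group, the fold is a bound, the brighter group's mean against the dim arrays' lowest detected signal or the probe's own, whichever was higher. Which exon a probe covers was not given in the sources used here. No 2 arrays held identical values.

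The 9 genes and the pathway and marker lists were chosen with earlier results of these data known. Named were every probe of the 9 genes, in each pathway list the 3 called genes with the largest rise and the 3 with the largest fall, relatives (Ren1, Agtr1b, Mas1, Atp6ap2, Edn2, Edn3 and Ece2), and for Ace and Agtr1a the 5 genes most correlated with each. The rule also took in 1 more relative, which is not reported here, nor is 1 of the genes correlated with Agtr1a. Marker genes were named after their values were seen. On simulated data of 13000 probes, calls were made for 165 of 200 changed probes, in the planted direction, and for 12 unchanged ones. The changes were planted in bright probes only, and in fewer probes than were called in the hearts. Recovery for probes as dim as those of Ace and Agt was therefore not measured. Alternatives were 2 other background corrections, 3 other normalizations, 3 other filters, an intensity trend, array weights, a replicate block, every probe of a gene, and leaving out each heart. Python 3.11.15 with matplotlib 3.10.9 drew the figures. Replicate p-values measure the spread between these hearts only.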

Additional observations from a re-analysis of the deposited data

How the results depend on the processing

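Of the 8 probes of the 9 genes that passed the threshold, 5 (both of Ace, Agtr1a and both of Ece1) passed it in every setting that gave a value. The Ace probes had no value with detection required on all 6 arrays, and ILMN_2613683 had none with any hSRY-ON heart left out. The count of such probes was 5 to 8 when each heart was left out in turn (5 without hSRY-OFF replicate 1, hSRY-ON replicate 2 or hSRY-ON replicate 3), and 6 to 9 in the other settings. The Ednrb probe ILMN_2917471, not called, turned to -0.082 with array weights and ranged from -0.36 (without hSRY-OFF replicate 3) to 0.74 with each heart left out. Without normalization between arrays, 1897 of all tested probes and 11 of the other pathway genes passed, against 3567 and 23. Of these 11, 1 was among the angiotensin enzymes, 1 among the endothelin ligands and enzymes, 1 in G protein signaling and 3 in receptor desensitization, against 3, 2, 4 and 5. The causes were not tested. With each heart left out, these counts ran from 2206 (without hSRY-OFF replicate 1; 2255 without hSRY-ON replicate 1) to 3669 and from 15 (without hSRY-OFF replicate 1) to 22, and 23 to 37 of the cell type markers passed, against 33. The share of called probes that were higher in hSRY-ON was 50.1%, and became 38.5% without normalization, 65.7% with median scaling and 59.1% with scaling in the manner of TCC, where the median of all probes moved to -0.12, 0.09 and 0.07. Agtrap was not called under any of these 3 scalings. Over all tested probes, same-numbered hearts did not deviate together (correlations -0.02, 0.04 and -0.07). With 3 hearts per group this cannot tell whether same-numbered hearts shared a litter or handling. With a replicate block, 8 probes of the 9 genes were called, 2842 of all probes and 20 pathway genes, Edn1 missed the threshold (adjusted p = 0.0537), and Agt passed it (adjusted p = 0.0152), as it did with an intensity trend (0.0433) and array weights (0.0328). Of the 23 called pathway genes, 6 kept the call in every setting and 0 changed sign.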
